A study of Mus musculus with 12 samples.

Results

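The genes examined encode the proteins of the cytoplasmic ribosome, the particle that translates mRNA. A gene was taken as a member if its platform symbol began with Rpl or Rps and a digit, or was Rplp0, Rplp1, Rplp2 or Rpsa, after kinases of Rps6, pseudogene symbols and names ending in bp or rt1 had been left out. Each gene was represented by its brightest probe set that names this gene alone. This gave 50 members of 18193 genes: 20 of the large subunit, 21 of the small subunit, 2 of the stalk, 6 paralogs and Rps19bp1, which binds Rps19 and is not part of the ribosome. A further 31 ribosomal protein symbols occur only on probe sets that name several genes and are not members. RefSeq lists 49 members as protein coding and Rps4l as a transcribed pseudogene.

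Ribosomal proteins are grouped by the subunit that holds them, and the genes of the large subunit are named Rpl and those of the small subunit Rps. The acidic stalk of the large subunit, built from Rplp0, Rplp1 and Rplp2, recruits the factors that drive elongation. Growing cells make these proteins in matched amounts, many of their mRNAs start with a run of pyrimidines through which translation is tuned to growth signals, and MYC transcription factors are known to bind and activate genes of ribosome production. Several ribosomal proteins have a second copy in the genome, a paralog, that is used in particular tissues or states.

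Expression of these genes was examined in 9 pancreatic and 3 pituitary tumors, each measured on 1 Affymetrix mouse oligonucleotide microarray. All 12 tumors came from LSL-MYCN;hGFAP-Cre mice, in which Cre recombinase under the human GFAP promoter removes a stop cassette and switches on MYCN and luciferase in GFAP-positive cells. The animals had a genetic background mixed from several inbred strains and the tumors had received no treatment. The 3 tumors called pituitary here carry the label brain, and the study's text places them at the pituitary. Age and mouse are not given per tumor, some mice of the model had tumors at both sites, and tumors from 1 mouse cannot be told apart from tumors of separate mice, so p-values measure the spread between these tumors only. Values are log2 signals, so a difference of 1 is a 2-fold change of signal, and all differences are pancreatic minus pituitary.

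The sequences around the annotated start of transcription are shown first, because the run of pyrimidines at that position is the feature by which these mRNAs are known. RefSeq windows (GRCm38.p6, 300 bases, of which 250 precede the start) were matched for 44 of 50 members. A C at the start base followed by at least 4 pyrimidines was found in 8 of 44 members (18.2%), beside 3.01% of all 27025 genes with a window. The 8 windows are printed from 30 bases before to 15 bases from the start. Capitals mark the run of pyrimidines from the start base on, and pyrimidines that directly precede the start base are left in lower case.
Rpl14 (chr9:120571487-120571531, plus strand): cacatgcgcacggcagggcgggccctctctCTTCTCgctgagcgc
Rpl35 (chr2:39005117-39005161, minus strand): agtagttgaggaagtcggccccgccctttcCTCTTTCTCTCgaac
Rpl38 (chr11:114668550-114668594, plus strand): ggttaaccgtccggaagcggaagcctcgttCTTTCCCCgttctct
Rplp2 (chr7:141447621-141447665, plus strand): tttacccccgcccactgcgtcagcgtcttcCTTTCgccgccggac
Rps10 (chr17:27635230-27635274, minus strand): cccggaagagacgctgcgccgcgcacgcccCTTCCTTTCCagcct
Rps18 (chr17:33955651-33955695, minus strand): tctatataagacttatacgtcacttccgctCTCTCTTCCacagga
Rps27 (chr3:90213634-90213678, minus strand): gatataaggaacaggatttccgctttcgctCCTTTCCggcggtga
Rps6 (chr4:86857353-86857397, minus strand): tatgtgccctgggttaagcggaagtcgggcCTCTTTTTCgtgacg

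Counted from the start base, these runs were 5 to 11 bases long. With the C allowed anywhere within 10 bases of the annotated start, 27 of 44 members held such a run (61.4%), beside 34.4% of all genes. The windows of Rpl22l1, Rplp0 and Rpsa are shown because these members are described in full below. The paralog Rpl22l1 held its run from base 4 after the start, and none was found within 10 bases of the annotated start of Rplp0 or Rpsa, so these windows are all in lower case.
Rpl22l1 (chr3:28805478-28805522, plus strand): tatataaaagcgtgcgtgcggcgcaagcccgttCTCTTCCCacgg
Rplp0 (chr5:115559437-115559481, plus strand): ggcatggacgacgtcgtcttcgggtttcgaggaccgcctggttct
Rpsa (chr9:120127736-120127780, plus strand): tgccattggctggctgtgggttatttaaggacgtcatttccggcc

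Other letters were counted over the whole 300 bases. CACGTG, the E-box that MYC binds, which reads the same on both strands, was present in the windows of 4 of 44 members (Rpl13a, Rpl14, Rpl19 and Rps19; 9.09%), beside 8.09% of all genes. GGAA on either strand was in all 44, beside 96.5% of all genes. CGGAAG on either strand, which contains GGAA and was counted after the windows had been read, was in 31 of 44 members (70.5%), beside 18.8% of all genes. These are matches of letters in reference windows, and neither the start used in the tumors nor binding was measured. Among the 8 members with the run at the start base, the difference between the sites went from -0.09 for Rps27 to 0.65 for Rps6, and none of the 8 passed the test.

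The labels were checked against marker genes. All 5 islet markers were higher in pancreatic tumors and all 5 measured markers of the anterior pituitary were lower, by limma at an adjusted p under 0.05. Of the glial markers 3 of 6, and of the neuronal markers 2 of 5, were lower in pancreatic tumors, and both were unevenly spread over the pituitary tumors. The mean of the glial markers, each relative to its mean over 12 tumors, was 4.19, 0.56 and 3.84 in pituitary tumors 6, 7 and 8, against -1.44 to -0.03 in the pancreatic tumors. The same score of neuronal markers was 2.85, 0.45 and 2.95 in these pituitary tumors. Pancreatic tumor 2 had the lowest neuroendocrine score, -3.28, and the highest score of 3 measured hepatocyte markers, 6.48, where the pancreatic tumors ranged from -2.80 and the pituitary tumors from -3.23 to -2.22. Pancreatic tumor 5 had the largest 3' minus 5' signal of Actb, 3.48, and of Gapdh, 2.29, values that grow as RNA is degraded. In tissue RNA of this kind, fewer cells of a type and less RNA per cell cannot be told apart.

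On their brightest probe sets, most ribosomal protein genes were near the top of the range on every array and differed little between tumors. Of 50 members, 34 lay within the top 1% of probe set signals on each array and 37 within the top 5%, and the highest signal of any array was 15.10. These positions describe room on the scale only, since signals of different probe sets do not compare transcript amounts. The SD over the 12 tumors had a median of 0.196 over the members and 0.186 over the 43 that remain without paralogs and Rps19bp1. It was smallest for Rpl13a (0.079), Rps29 (0.081) and Rpl38 (0.097). These are values of the brightest probe set of each gene. The other Rpl13a probe sets had SDs of 0.143, 0.232 and 0.418, and those of Rps29 had 0.058 and 0.087. Among genes whose mean signal was over 13, the median SD was 0.179 for 34 ribosomal protein genes and 0.351 for the other 49 genes.

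At the dim end, 5 members had signals at or below the array median in at least 1 tumor. Rps16, Rpl39l and Rpl3l were at or below it in all 12, Rps4l in 5 pancreatic tumors and Rpl12 in 1 pancreatic tumor. The Rps16 probe set read 3.17 to 3.53 with a median of 3.39 in pancreatic tumors, against 3.45, 3.75 and 3.53 in pituitary tumors. It is thus a probe set near the floor of the array, although Rps16 is a core protein of the small subunit. Its values are not taken as the level of this gene. The probe sets of Rpl12, Rpl14, Rpl27a, Rpl39, Rps25 and Rps27 were also dim, with means of 6.49 to 8.66, where 34 of 50 members had a mean over 13. Whether their values follow the main transcripts of these genes was not tested.

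No member passed the test between the sites. With limma over all 45037 probe sets, 0 of 50 members were higher and 0 were lower in pancreatic than in pituitary tumors at an adjusted p under 0.05, beside 1.63% of all genes called higher and 4.29% called lower, and the smallest adjusted p was 0.101. With weights that count scattered arrays less, 4 members were higher (Rpl11, Rpl22, Rps19bp1 and Rpsa) and 0 lower, beside 5.28% and 8.77% of all genes. Without pituitary tumor 7, 2 members were higher (Rpl22 and Rps6) and 0 lower, beside 1.53% and 5.45% of all genes. At an unadjusted p under 0.05, 7 members were higher (14%), beside 9.53% of all genes, and 1 was lower (2%), beside 14.0% of all genes. The values of the 2 sites did not overlap for Rpl37 and Rpsa, both higher (4%), beside 4.21% of all genes, and for 0 members that were lower, beside 5.21%. The difference was above 0 for 40 of 50 members (80%), beside 53.1% of all genes, and its median was 0.13 beside 0.04 over all genes. After quantile normalization 34 of 50 members were above 0, and the members' median was 0.06 and that of all genes 0.08. Without pituitary tumors 6 and 8, 28 of 50 were above 0, with medians of 0.021 for the members and -0.012 for all genes. Most differences were small, with 44 of 50 members (88%) below 0.5 in size, beside 64.8% of all genes.

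**Figure D1:**
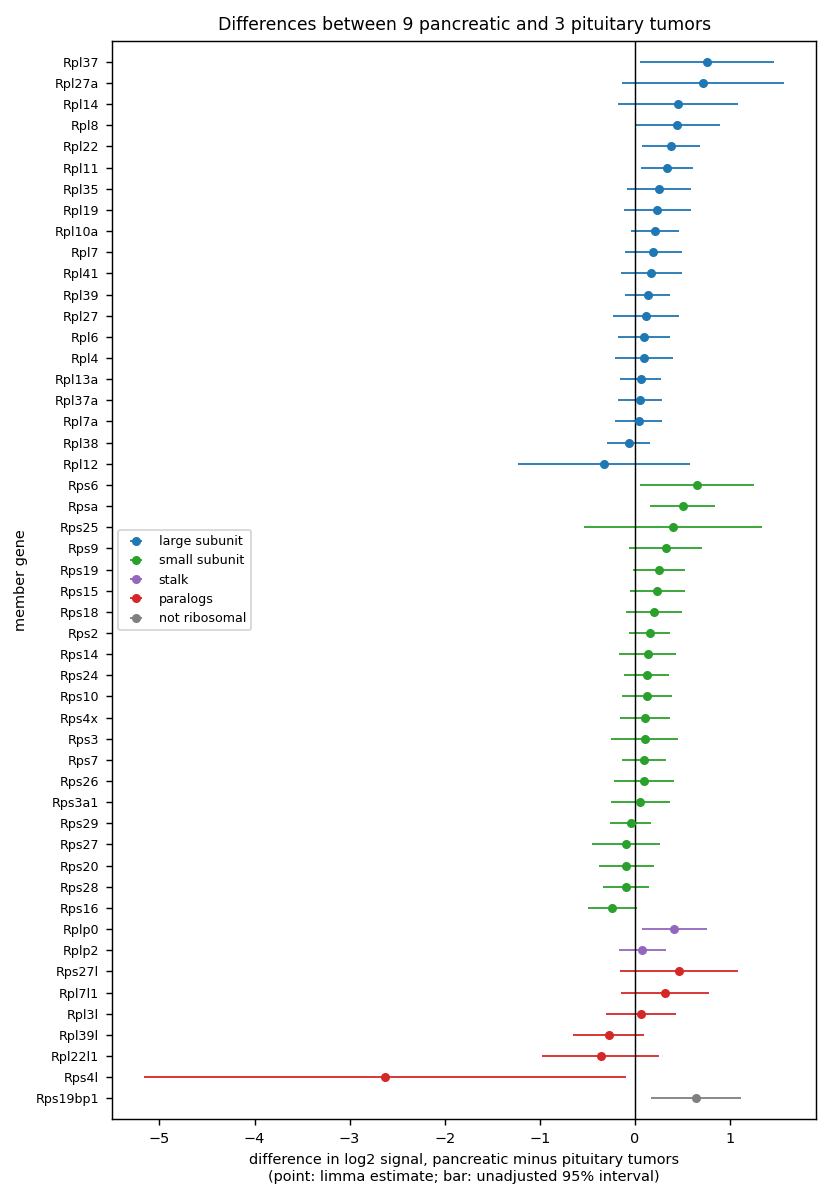
Difference in log2 signal, pancreatic minus pituitary tumors, for each of the 50 members (points, limma estimates; bars, unadjusted 95% intervals; colours, role groups). Most points lie between -0.5 and 0.5, Rps4l is far to the left at -2.63 with a wide interval, and no member passed the adjusted threshold.

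In the large subunit, 18 of 20 differences were above 0, with a median of 0.18, and 0 passed the test. Rpl37 had the largest difference. Its signal was 11.06 to 12.68 with a median of 11.21 in pancreatic tumors, against 10.55, 11.05 and 10.72 in pituitary tumors. The lowest pancreatic tumor and the highest pituitary tumor were nearly equal. Pancreatic tumors 10, 11 and 12 stood highest, at 11.94, 12.68 and 11.95. The difference was 0.76 with an SE of 0.32 and an adjusted p of 0.220, and it was 0.43 without these tumors. Their arrays also had the lowest mean signals of all arrays, 5.97, 5.97 and 5.98. The part of this in the Rpl37 values was not tested.

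Rpl27a followed with 8.00 to 9.97 and a median of 8.69 in pancreatic tumors, against 7.92, 8.39 and 8.07 in pituitary tumors (difference 0.71, adjusted p = 0.346). The groups overlapped, and pancreatic tumors 5 and 10 were the high ones. Rpl14 was at 7.78 to 8.83 with a median of 8.16 in pancreatic tumors, against 7.09, 8.35 and 7.93 in pituitary tumors (difference 0.45, adjusted p = 0.420). Only pituitary tumor 6 lay outside the pancreatic range, and without it the difference was 0.11.

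Rpl11 binds Mdm2 together with Rpl5 and so links ribosome assembly to p53. It averaged 13.79 ± 0.13 in pancreatic tumors and 13.45 ± 0.19 in pituitary tumors (SD, n = 9 and n = 3), a difference of 0.34 with an adjusted p of 0.157. Pituitary tumors 6 and 8, at 13.37 and 13.31, were below every pancreatic tumor, while pituitary tumor 7, at 13.67, was within their range of 13.50 to 13.95. Rpl5 is read only by probe sets that name several genes. At the other end stood Rpl12, at 5.51 to 7.98 in pancreatic tumors, against 7.08, 6.24 and 6.87 in pituitary tumors (difference -0.32, adjusted p = 0.708). Rpl38, known for the skeletal defects of its mouse mutants, was at 14.16 to 14.49 in pancreatic tumors, against 14.43, 14.50 and 14.50 in pituitary tumors (difference -0.07, adjusted p = 0.762).

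In the small subunit, 16 of 21 differences were above 0, with a median of 0.12, and again 0 passed the test. Rpsa, also known as the laminin receptor precursor, had the smallest adjusted p of all members. It was at 13.95 to 14.56 with a median of 14.03 in pancreatic tumors, against 13.25, 13.86 and 13.73 in pituitary tumors. The groups did not overlap, the highest value was that of pancreatic tumor 5, and the difference was 0.50 with an SE of 0.16 and an adjusted p of 0.101. Without pituitary tumor 6 it was 0.32.

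Rps6, the substrate of the S6 kinases, was at 10.38 to 11.48 with a median of 10.97 in pancreatic tumors, against 9.91, 10.99 and 9.76 in pituitary tumors (difference 0.65, adjusted p = 0.213). Pituitary tumors 6 and 8 were below every pancreatic tumor, and pituitary tumor 7 was near the pancreatic median. Without pituitary tumor 7 the gene passed the test, with a difference of 1.04 and an adjusted p of 0.0350. Without pituitary tumors 6 and 8 the difference was -0.12.

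Rps25, which some viral mRNAs need to start translation, was read by a dim probe set that varied widely. It was at 8.04 to 10.11 with a median of 8.51 in pancreatic tumors, against 7.91, 8.99 and 8.17 in pituitary tumors (difference 0.40, adjusted p = 0.646). The high values were those of pancreatic tumors 3 and 11, and the difference was 0.18 without pituitary tumor 6 and 0.72 without pituitary tumor 7. Rps16, Rps28, Rps20, Rps27 and Rps29 were the 5 small subunit members with a difference below 0, from -0.24 for Rps16 to -0.05 for Rps29. Rps28 averaged 14.28 ± 0.12 in pancreatic tumors and 14.37 ± 0.09 in pituitary tumors, and Rps20 averaged 13.94 ± 0.16 in pancreatic tumors and 14.03 ± 0.16 in pituitary tumors (SD, n = 9 and n = 3 for both).

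Both measured stalk genes had differences above 0. Rplp0, a frequent reference gene in expression work, was at 13.71 to 14.27 with a median of 14.08 in pancreatic tumors, against 13.77, 13.88 and 13.22 in pituitary tumors. Pituitary tumor 8 was below all others, the groups overlapped through pancreatic tumor 5, and the difference was 0.41 with an SE of 0.16 and an adjusted p of 0.164. Without pituitary tumor 8 it was 0.21. Rplp2 averaged 14.16 ± 0.13 in pancreatic tumors and 14.08 ± 0.10 in pituitary tumors (SD, n = 9 and n = 3; difference 0.08, adjusted p = 0.753).

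**Figure D2:**
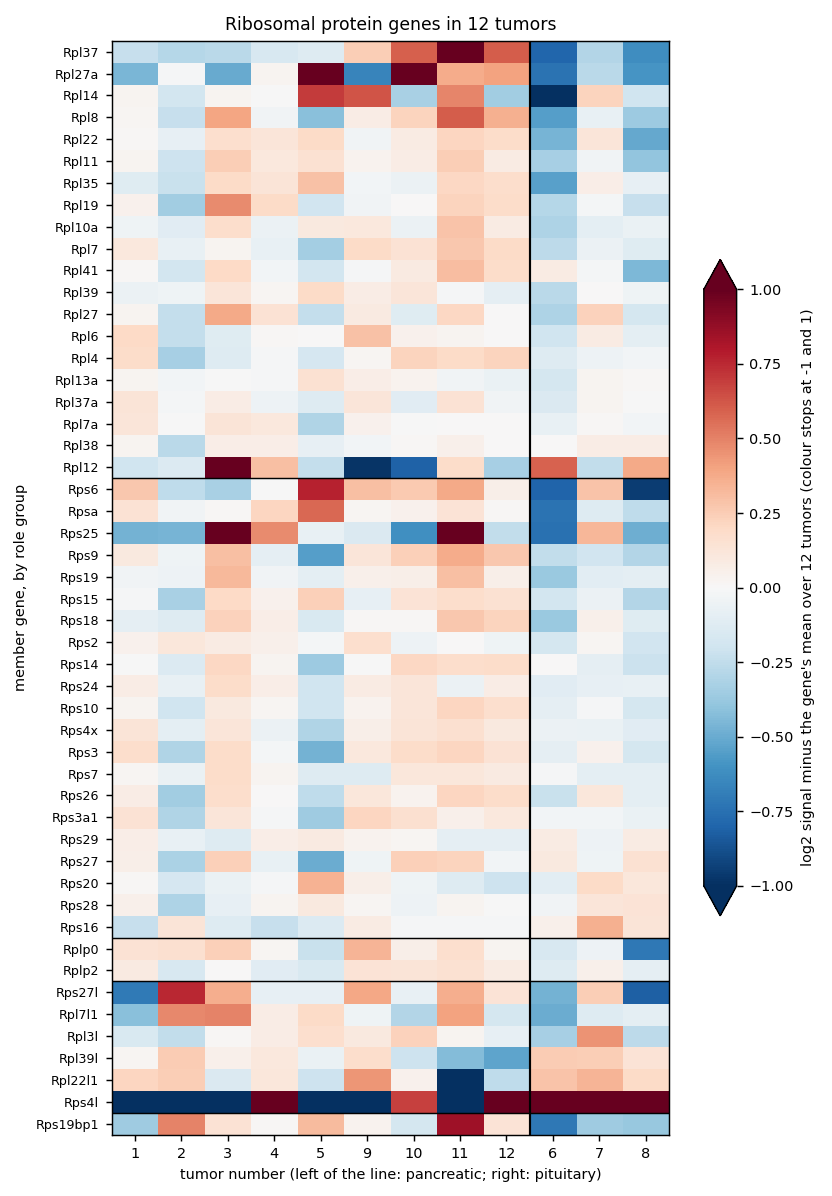
Log2 signal of each member minus its mean over the 12 tumors, by role group (rows, divided by lines) and tumor (columns; pancreatic left and pituitary right of the vertical line). Pituitary tumors 6 and 8 and pancreatic tumor 2 are blue in many rows and pancreatic tumor 11 is red in many, while the Rps4l row goes beyond the ends of the colour scale in most tumors.

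The 6 paralogs had a median SD over the 12 tumors of 0.395. It was 0.186 for the 43 ribosomal members without paralogs and 0.472 for all genes. Of the 43, 34 had a mean signal over 13, and no paralog did. In 3 paralogs the difference was below 0. No paralog passed the test. Rps4l had the largest SD of all members, 2.18. It was at 4.83, 6.17, 5.56, 9.22, 4.56, 5.21, 7.90, 5.10 and 10.49 in pancreatic tumors 1, 2, 3, 4, 5, 9, 10, 11 and 12, against 9.29, 8.87 and 9.42 in pituitary tumors 6, 7 and 8. All 3 pituitary tumors and pancreatic tumors 4 and 12 were high, pancreatic tumor 10 was between, 5 pancreatic tumors were at or below their array's median signal, which was 5.45 to 5.69 over the arrays, and pancreatic tumor 2 was little above it. The difference was -2.63 with an SE of 1.16 and an adjusted p of 0.239, and an unadjusted p of 0.0430 made Rps4l the 1 member counted as lower above.

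Rps4x, the X-linked gene from which Rps4l takes its name, did not share that pattern. Its signal was 13.70 to 14.16 with a median of 14.10 in pancreatic tumors, against 13.94, 13.93 and 13.89 in pituitary tumors (SD over 12 tumors 0.139, difference 0.10, adjusted p = 0.670).

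Rpl22l1 is the paralog that mouse Rpl22 is known to hold down. Its signal was 11.51 to 13.21 with a median of 12.81 in pancreatic tumors, against 13.05, 13.11 and 12.96 in pituitary tumors. The low value was that of pancreatic tumor 11, with the next tumor at 12.51, and the difference was -0.36 with an SE of 0.28 and an adjusted p of 0.517. Without pancreatic tumor 11 it was -0.22. Rpl22 was at 13.65 to 13.94 with a median of 13.85 in pancreatic tumors, against 13.26, 13.85 and 13.22 in pituitary tumors (difference 0.38, adjusted p = 0.162). Pancreatic tumor 11, with the lowest Rpl22l1, had the highest Rpl22, 13.94, as it had the highest value of 14 of the 43 ribosomal members without paralogs. Pancreatic tumors 3, 5 and 12 were close to it in Rpl22, at 13.90, 13.92 and 13.91, with Rpl22l1 at 12.62, 12.56 and 12.51. Pituitary tumor 7 had Rpl22 at 13.85 and Rpl22l1 at 13.11. A link between the levels of these genes was not tested.

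Rps27l, a target of p53, was at 11.58 to 13.04 with a median of 12.42 in pancreatic tumors, against 11.81, 12.53 and 11.47 in pituitary tumors (difference 0.46, adjusted p = 0.398). Pancreatic tumor 2 was highest and pancreatic tumor 1 lay with the low pituitary tumors, and the difference was 0.23 without pituitary tumor 8. Its partner Rps27 was read by a dim probe set at 6.27 to 7.00 in pancreatic tumors, against 6.86, 6.72 and 6.92 in pituitary tumors (difference -0.09). Rpl7l1 averaged 9.60 ± 0.34 in pancreatic tumors and 9.28 ± 0.22 in pituitary tumors (difference 0.32, adjusted p = 0.438), and its partner Rpl7 averaged 13.53 ± 0.19 in pancreatic tumors and 13.34 ± 0.10 in pituitary tumors (SD, n = 9 and n = 3 for both). Rpl39l, known from testis, and Rpl3l, known from heart and skeletal muscle, stayed at or below the array median in all 12 tumors. Rpl39, the partner of Rpl39l, was at 6.87 to 7.15 in pancreatic tumors, against 6.69, 6.97 and 6.92 in pituitary tumors.

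Rps19bp1, the member outside the ribosome, was at 8.16 to 9.36 with a median of 8.65 in pancreatic tumors, against 7.80, 8.16 and 8.14 in pituitary tumors. Pancreatic tumor 1 was level with the upper pituitary tumors, and the difference was 0.64 with an SE of 0.22 and an adjusted p of 0.125.

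**Figure D3:**
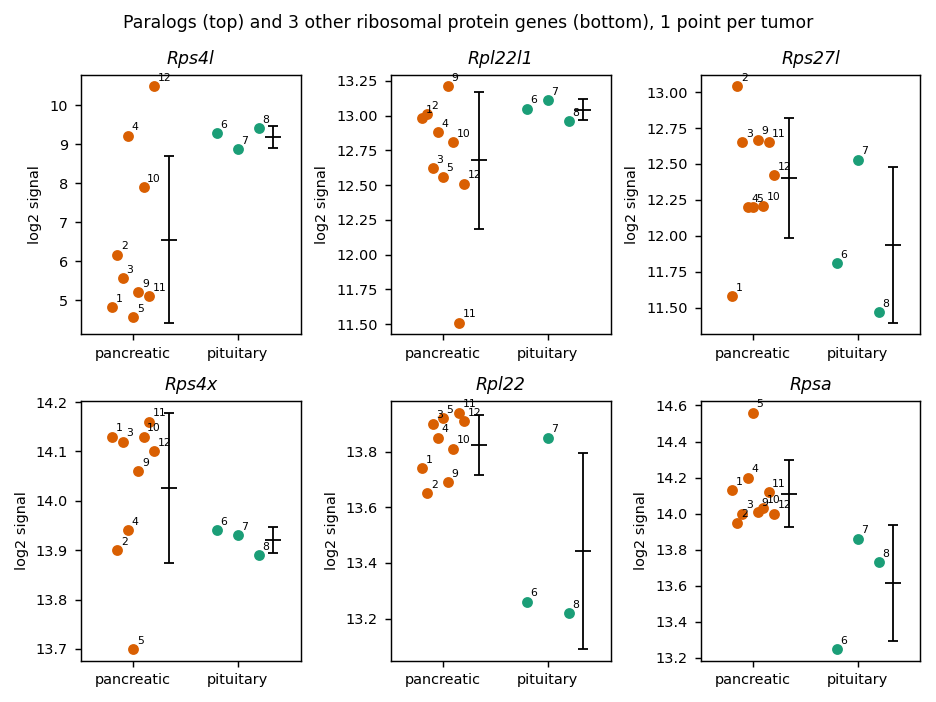
Log2 signal in each tumor (points, numbered by tumor; bars, mean and SD) of the paralogs Rps4l, Rpl22l1 and Rps27l above and of Rps4x, Rpl22 and Rpsa below, pancreatic left and pituitary right in each panel; the axes differ and do not start at 0. Rps4l spans 4.56 to 10.49 among pancreatic tumors and 8.87 to 9.42 among pituitary tumors, whereas Rps4x spans 13.70 to 14.16 among pancreatic tumors and 13.89 to 13.94 among pituitary tumors.

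Of 106 probe sets that name a member alone, 2 passed the test, both higher, beside 1.18% of all probe sets called higher and 3.45% called lower. Neither was the brightest of its gene. Of the 2, the Rpl22 set has neither the suffix _x_at nor _s_at, and the Rps9 set has _x_at. The second probe set of Rpl22 was at 12.35 to 13.06 in pancreatic tumors, against 11.00, 11.81 and 11.73 in pituitary tumors. The groups did not overlap on it, and the difference was 1.19 with an SE of 0.20 and an adjusted p of 0.00549. Pancreatic tumors 10, 11 and 12 were highest on this probe set. Without them the difference was 1.05 with an adjusted p of 0.0359. It passed the test with each of the 12 tumors left out in turn, with adjusted p from 0.00378 to 0.0382, and had a difference of 0.89 with an adjusted p of 0.310 without pituitary tumors 6 and 8. The dimmest Rpl22 probe set averaged 9.80 in pancreatic tumors and 9.67 in pituitary tumors, a difference of 0.12 with an adjusted p of 0.870.

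The second probe set of Rps9 was at 12.68 to 13.28 in pancreatic tumors, against 12.09, 12.68 and 12.30 in pituitary tumors. The difference was 0.68 with an SE of 0.16 and an adjusted p of 0.0352. This call was kept in only 3 of 12 fits with 1 tumor left out, those without pancreatic tumor 2, pancreatic tumor 5 or pituitary tumor 7, and adjusted p went from 0.0161 to 0.208. On the brightest probe set Rps9 was at 12.83 to 13.75 in pancreatic tumors, against 13.13, 13.19 and 13.09 in pituitary tumors (difference 0.32, adjusted p = 0.342).

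The probe sets of 1 gene often gave different values. For 18 members, 2 or more probe sets had a mean signal over 10, which gave 52 probe sets. The size of the difference, whatever its sign, was larger on the dimmest than on the brightest of them in 11 of 18 members, and was smallest on the brightest in 9 of 18. The size was smaller on the dimmest in Rpl37a, Rpl41, Rps15, Rps18, Rps20, Rps27l and Rps28. Of these, Rps27l had 0.46 on the brightest and 0.34 on the dimmest, and Rps15 had nearly equal values. Rps20 and Rps28 had -0.09 and -0.10 on the brightest and -0.02 and -0.01 on the dimmest probe sets. The median difference was 0.13 on the brightest and 0.23 on the dimmest probe sets. Rpl13a, known in human cells also for silencing inflammatory mRNAs, gave differences of 0.06, 0.20, 0.41 and 0.65 on probe sets of falling brightness. Whether the upper end of the scale narrows the differences of the brightest probe sets was not tested.

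**Figure D4:**
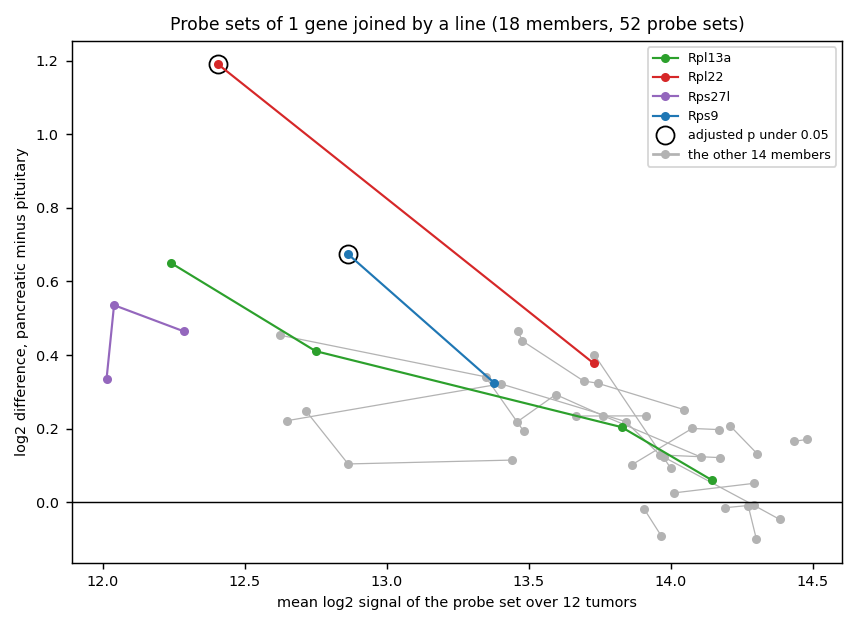
Log2 difference, pancreatic minus pituitary tumors, against mean log2 signal over 12 tumors for 52 probe sets of 18 members, with probe sets of 1 gene joined by a line and those with an adjusted p under 0.05 circled. For Rpl22, Rps9 and Rpl13a the difference is larger on the dimmer probe sets, whereas for Rps27l it is smallest on the dimmest. The 2 circled points are the second probe sets of Rpl22 and Rps9.

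The 43 ribosomal members without paralogs were then followed tumor by tumor. The score of a tumor, the mean over these members of the log2 signal minus its mean over 12 tumors, was 0.01, -0.16, 0.16, 0.03, -0.03, 0.04, 0.06, 0.22 and 0.07 in pancreatic tumors 1, 2, 3, 4, 5, 9, 10, 11 and 12, against -0.24, 0.01 and -0.17 in pituitary tumors 6, 7 and 8. Pituitary tumors 6 and 8 and pancreatic tumor 2 were low, pancreatic tumors 3 and 11 were high, and the groups overlapped. Above their own mean were 36 of 43 members in pancreatic tumor 11 and 3 in pancreatic tumor 2, against 7, 20 and 8 in pituitary tumors 6, 7 and 8. The 2 low pituitary tumors are those with glial scores of 4.19 and 3.84. The hepatocyte score was 6.48 in the low pancreatic tumor 2, but also 3.90 and 4.26 in pancreatic tumors 3 and 4, whose ribosomal scores were 0.16 and 0.03. The part of other cell types in the score was not tested. Without pituitary tumors 6 and 8 the median difference over the 50 members was 0.021.

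Pancreatic tumor 5, with the largest 3' minus 5' signals, had a score near 0 but the most scattered members. It held the highest value of 10 members and the lowest value of 11. Rpsa (14.56) and Rps20 (14.31) were highest there, while Rps9 (12.83) and Rps4x (13.70) were lowest. The part of RNA quality in these values was not tested. Pituitary tumor 6 held the lowest value of 14 members and pancreatic tumor 11 the highest value of 14.

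Most pairs of the ribosomal members moved together from tumor to tumor. Over the 12 tumors, the median correlation between pairs of the 43 ribosomal members was 0.36 (903 pairs, from -0.74 to 0.95). Of these pairs 76.4% were above 0, beside 51.2% of pairs of all genes. The median was 0.48 for pairs of 76 mitochondrial ribosomal protein genes and 0.01 for pairs of all genes. Among genes with a mean over 13, it was 0.46 for 34 ribosomal members and 0.11 for the other 49 genes. Within the 9 pancreatic tumors the median was 0.29 for the 43 members, with 66.2% of pairs above 0. It was 0.56 for mitochondrial ribosomal protein genes and 0.01 for all genes. Among genes with a mean over 13, it was 0.43 for ribosomal members and 0.18 for the others. The points of all these genes come from the same arrays, so the values are descriptions. Rpl8 and Rpl11 followed the mean of the other members most closely, with r = 0.91 for both. Rpl39l, Rpl22l1 and Rps29 ran opposite to it, with r = -0.63, -0.63 and -0.56. Within the pancreatic tumors these were -0.59, -0.67 and -0.42. The Rpl39l probe set was at or below the array median in all 12 tumors, so its r is not taken as that of the gene. Rps16, Rps4l, Rps20 and Rpl12 also had negative r over the 12 tumors, from -0.35 to -0.13.

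Other genes of translation were counted in the same way. Of 76 mitochondrial ribosomal protein genes, which serve the separate ribosome of that organelle, 1 was higher (1.32%) and 0 lower, beside 1.63% and 4.29% of all genes. Their median difference was 0.17 and their median SD over 12 tumors 0.454. Of 19 measured translation genes known for oligopyrimidine starts, such as elongation factors, 0 passed the test. At an unadjusted p under 0.05, 4 were higher (21.1%) and 0 lower, beside 9.53% and 14.0% of all genes. A difference above 0 was found for 16 (84.2%), beside 53.1% of all genes, with a median of 0.19. Of 4 ribosomal proteins with other kinds of symbol, 1 was measured on a probe set of its own, with a difference of 0.25.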

How the data were processed

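Values were used as the log2 signals that the authors deposited after normalizing the arrays. Partek Genomics Suite and RMA both appear in the study's methods, and the one behind the table is not stated there. All 12 columns were matched to tumors by label. Of 45101 probe sets, 64 controls were left out. Genes came from the platform annotation, and all 50 members matched RefSeq by Entrez identifier. The sites were compared over 45037 probe sets by linear models with moderated variances (limma 3.58.1, R 4.3.3), with Benjamini-Hochberg adjustment and a threshold of 0.05. The number of arrays limits the precision. The fit was tested on simulated data. Named are the 3 members with the largest difference in each direction per role group, paralogs with their partners, the 5 with the largest SD, Rplp0, Rpl5, Rpl11, Rps6 and Rps19bp1; Rpl8, Rpl13a, Rps29 and the second probe sets were named after their values were seen. Members and lists were chosen with earlier results of these data known. Other normalizations, weights, variance priors, probe set choices and tumors left out were tried. Arrays of normal pancreas and neuroblastoma were not analysed here.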

Additional observations from a re-analysis of the deposited data

Results flagged for a closer look

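Among 28 results examined for a tumor standing apart from the other 8 pancreatic tumors, by Dixon's test at the 5% level, 7 were marked. Chance marks about 1 in 20 independent results. These results share their arrays, and many were named for a large difference or SD, so the count cannot be set against that rate. Pancreatic tumor 2 was far below the others for Rpl11 (13.50), Rpl38 (14.16) and Rps28 (13.99). Pancreatic tumor 5 was far above the others for Rps20 (14.31) and Rpsa (14.56) and far below them for Rps9 (12.83). Pancreatic tumor 11 was far below the others for Rpl22l1 (11.51). The 7 marks fall on 3 tumors, of which pancreatic tumor 2 has the highest hepatocyte score and pancreatic tumor 5 the largest 3' minus 5' signals; the part of either was not tested.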

How the results depend on the processing

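The count of members that passed the test was 0 in both directions in most settings. The exceptions were all higher in pancreatic tumors. With array weights there were 4 (Rpl11, Rpl22, Rps19bp1 and Rpsa), where 5.28% of all genes were called higher. Without pituitary tumor 7 there were 2 (Rpl22 and Rps6), where 1.53% were, so that leaving out 1 tumor gave 0 to 2. On second-brightest probe sets of 24 members there were 2 (Rpl22 and Rps9), beside 1.18% of all probe sets called higher. The next 2 alternatives were chosen after seeing the data. On the other probe sets over 10 of ribosomal members, 2 of 34 were called, the same Rpl22 and Rps9 sets, beside the same 1.18%. Their median difference was 0.24. With several-symbol probe sets added 0 of 81 genes were called. The median difference of the members went from 0.10 to 0.20 with 1 tumor left out. It was 0.10 without pancreatic tumors 10, 11 and 12 and 0.021 without pituitary tumors 6 and 8. Relative to all genes it was 0.09, but -0.02 after quantile normalization.

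Of 602 checks of 27 named members, 579 kept direction and side of the threshold, 8 were newly called and 15, in 11 members, changed sign. None of the 15 was called. Without pituitary tumors 6 and 8, which leaves 1 pituitary tumor assumed to vary like the others, the differences were 0.16 for Rpl12, -0.10 for Rpl14, -0.0263 for Rpl22, -0.44 for Rpl3l, -0.0339 for Rplp2, -0.23 for Rps25, 0.0188 for Rps27, -0.13 for Rps27l and -0.12 for Rps6. After quantile normalization they were -0.00856 for Rplp2 and 0.0501 for Rps27. On the second-brightest probe set Rpl27a had -0.0473, where that set read 3.09 to 4.49 and was at or below the array median in all 12 tumors. Without _x_at probe sets Rps20 had 0.11, from a set with a mean signal of 6.08 in place of 13.97. With 1 tumor left out Rpl3l went from -0.0784 without pituitary tumor 6 to 0.311 without pituitary tumor 7, and was -0.0452 without pituitary tumor 8. The cause of these changes was not tested. No paired analysis was possible because the mouse of each tumor is not given. A p above the threshold does not show equal levels. The probe sets of Rps16, Rpl39l and Rpl3l and the second-brightest of Rpl27a lie near background, which limits their values.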
